A study of Mus musculus with 6 samples.

Results

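The basement membrane core described here is a set of 10 genes taken by symbol from the 53762 genes counted in each library: the type IV collagen chains Col4a1, Col4a2, Col4a5 and Col4a6, the multiplexins Col15a1 and Col18a1, the nidogens Nid1 and Nid2, and the heparan sulfate proteoglycans Hspg2 (perlecan) and Agrn (agrin). The RNA came from immortalized MEFs (mouse embryonic fibroblasts, matrix-producing cells kept in culture), which were harvested 24 hours after they were seeded in high-glucose DMEM, a standard culture medium, and read counts per gene were deposited. By their titles, 3 libraries come from cells with a knockout of PME-1 (KO) and 3 from wild-type cells (WT), and the genotype field of KO libraries 2 and 3 carries another number after PME. PME-1, the product of Ppme1, is an enzyme that demethylates the phosphatase PP2A. How many embryos, clones or separate cultures the libraries stand for is not given in the sources used here, so p-values measure the spread between these libraries, which may be technical.

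Basement membranes are thin sheets of matrix beneath epithelia and endothelia and around muscle, fat and nerve fibres. Type IV collagen forms their covalent network, laminins form a second network that contacts cell receptors, and nidogens, perlecan and agrin link these networks and anchor them to cells. The main type IV collagen molecule is a trimer of alpha1 and alpha2 chains, the products of Col4a1 and Col4a2, which lie head to head in the genome and are transcribed outward from a shared region. Collagens XV and XVIII carry chains of sugars and sit where the basement membrane meets the underlying matrix. Their C-terminal ends can be released by proteases, and the fragment from collagen XVIII is endostatin. Fibroblasts make many of these components, including in tissues where other cells assemble them.

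The region between Col4a1 and Col4a2 is shown first, because these genes carry the largest called changes of the set and share it. In RefSeq on GRCm38.p6 the start site of Col4a1 (minus strand) is at position 11312826 of chromosome 8 and that of Col4a2 (plus strand) at 11312805, 21 bases apart, so the first 22 bases of the annotated transcripts overlap. The windows below run from 250 bases before to 50 bases after each start site, 5′ to 3′ on the strand of the gene, at chr8:11312777-11313076 and chr8:11312555-11312854. Capitals mark the 78 bases that both windows cover, of which 73.1% are G or C.
Col4a1: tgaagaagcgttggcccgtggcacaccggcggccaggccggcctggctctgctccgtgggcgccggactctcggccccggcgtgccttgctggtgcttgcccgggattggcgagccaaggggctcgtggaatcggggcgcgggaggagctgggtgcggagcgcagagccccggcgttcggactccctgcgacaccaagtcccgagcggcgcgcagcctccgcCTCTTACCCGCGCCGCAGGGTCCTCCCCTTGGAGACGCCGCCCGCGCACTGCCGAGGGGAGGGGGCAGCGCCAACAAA
Col4a2: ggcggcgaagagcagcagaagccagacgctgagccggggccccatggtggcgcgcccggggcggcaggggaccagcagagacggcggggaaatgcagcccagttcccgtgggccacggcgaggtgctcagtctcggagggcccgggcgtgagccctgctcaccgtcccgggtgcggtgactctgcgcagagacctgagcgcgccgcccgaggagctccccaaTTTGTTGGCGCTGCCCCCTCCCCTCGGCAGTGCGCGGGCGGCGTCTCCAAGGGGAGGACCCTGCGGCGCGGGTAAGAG

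Each window holds 1 CCAAT, on either strand, neither of them wholly within the shared bases, and such a match is present in 37.4% of the 32851 mouse promoter windows of this length. The shared bases hold 1 GGGCGG and 1 CCCTCCCC, searched on both strands without overlap between them. Of all whole windows, 35.7% hold GGGCGG and 10.8% hold CCCTCCCC. Whole windows are longer than the shared bases, so these shares are no rate for a stretch of that length. TATAAA was found in neither window and is in 13.6% of all. These matches describe the letters only. For comparison, the start sites of Col4a5 and Col4a6, which also lie head to head on chromosome X, are 1343 bases apart in the same annotation, and their windows do not overlap. A window was found for 9 of the 10 genes.

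Some facts of the whole series bear on what follows. Levels are in CPM (counts divided by the TMM-adjusted library size), and a log2 fold change is KO against WT with its standard error (SE). Ppme1, the targeted gene, had 705, 636 and 644 counts in KO libraries 1 to 3 and 2828, 3492 and 3774 in WT libraries 1 to 3. KO 1 and WT 1 stood apart from the other libraries of their group: over the 10762 genes that averaged 5 CPM or more, the root mean square log2 distance was 0.27 between KO 2 and KO 3 and 0.23 between WT 2 and WT 3, but 0.60 and 0.61 from KO 1 to the other KO libraries and 0.57 and 0.61 from WT 1 to the other WT libraries. Across these genes, the deviation of KO 1 from its group mean had a Pearson r of 0.62 and 0.63 with those of WT 2 and WT 3 and of -0.73 with that of WT 1, so WT 1 deviated in the direction of KO 2 and KO 3. Xist, an RNA made from the inactivated X chromosome of female cells, had 12, 11 and 4 counts in KO and 17666, 16003 and 18859 in WT, so genotype and the sex chromosomes of the cells cannot be told apart. Fibroblast markers had a sum over 12 genes of 12950 to 15180 CPM in KO and 16040 to 22060 CPM in WT, most of it from Col1a1, Col1a2, Col3a1, Vim and Fn1. Lum, Thy1, Pdgfra and Postn were low, with means of 1.04, 6.52, 4.70 and 5.22 CPM in KO and 0.24, 2.31, 10.9 and 15.2 in WT. Thy1 and Dcn lay higher in every KO library than in any WT library, without a call (adjusted p = 0.134 and 0.225 in edgeR). Of markers of cells that build much basement membrane, the endothelial list (10 genes) summed to 4.70 to 8.80 CPM in KO and 3.75 to 4.87 in WT, with Tie1, Emcn and Cldn5 at 0 counts in all libraries, and the epithelial list (10 genes) to 127 to 147 CPM in KO and 8.61 to 32.0 in WT, with Krt5, Krt14 and Esrp1 at 0. The sum of smooth muscle and pericyte markers (10 genes) was 228 to 391 CPM in KO and 404 to 1129 in WT, with Kcnj8 and Abcc9 at 0, and that of parietal endoderm, an embryonic cell layer that secretes thick basement membrane, was 164 to 211 CPM in KO and 218 to 388 in WT, with Sox17 and Afp at 0. The Schwann cell list (8 genes, Sox10 and Foxd3 at 0) lay at 8.40 to 16.4 CPM in KO and 7.60 to 13.8 in WT, and the macrophage list (8 genes, Adgre1, Itgam and Tyrobp at 0) at 1.35 to 5.12 CPM in KO and 1.30 to 2.96 in WT. Most of the epithelial sum was Krt18 and Krt19, whereas Epcam and Cdh1 averaged 0.68 and 0.10 CPM in KO and 0.64 and 0.27 in WT. Dab2 and Plat gave most of the parietal endoderm sum, at 73.4 and 87.4 CPM in KO and 85.0 and 210 in WT. Within these lists Krt8, Krt18, Gata6, Tek and Cspg4 rose in KO, and Acta2, Thbd, Col1a1, Pdgfrb and S100a4 fell. The part that these markers play in the results below was not tested, and in bulk RNA fewer cells of a type and less RNA per cell cannot be told apart.

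The set did not move as a whole. Of the 10 genes, 9 passed the filter on low counts, and 3 of these fell in KO cells: Col4a1, Col4a2 and Col18a1. Among all 15223 genes tested, 3.86% were called lower, 3.55% higher and 7.4% in either direction at an adjusted p under 0.05 (edgeR). No member rose in edgeR, where 1 was higher at an unadjusted p under 0.05. DESeq2 called 1 member higher and limma-voom 0. DESeq2 called 7.86% of all genes higher, 7.97% lower and 15.8% in either direction. The median log2 fold change was -0.06 over the 9 tested members and 0.01 over all genes. In 3 members every KO library lay below every WT library and in 1, Nid2, every KO library lay above. Among all tested genes, 15.4% had every KO library below every WT library, 14.6% had it above, and 30% were separated in either direction.

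**Figure D1:**
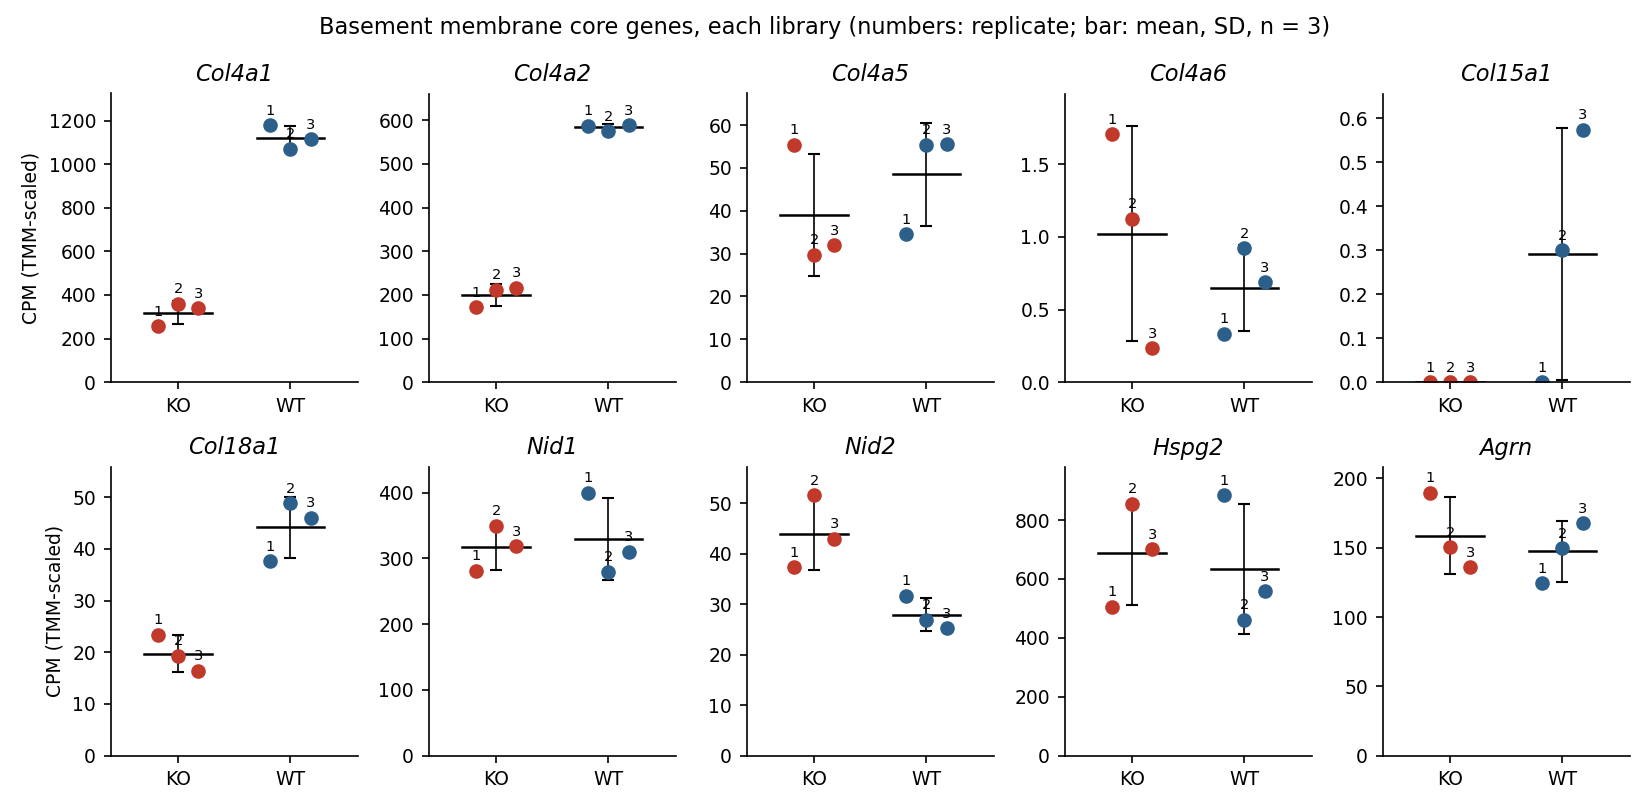
CPM (TMM-scaled, linear axes from 0) of the 10 genes in each library, with KO left and WT right in each panel. Points carry the replicate number and bars give the mean and SD (n = 3). The groups are separate for Col4a1, Col4a2, Col18a1 and Nid2, and KO 1 and WT 1 lie away from their group for Col4a5 and Hspg2.

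**Figure D2:**
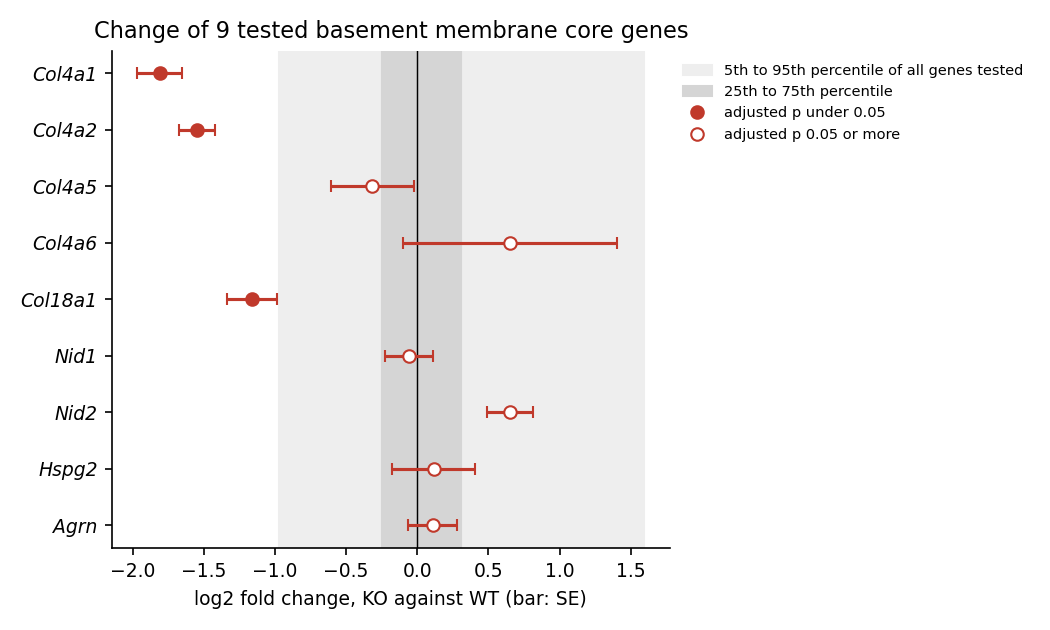
Log2 fold change, KO against WT, with SE for the 9 tested genes. Grey bands give the 25th to 75th (-0.25 to 0.30) and 5th to 95th (-0.97 to 1.595) percentiles of all genes tested, and Col4a1, Col4a2 and Col18a1 lie below the wider band.

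Col4a1 encodes the alpha1 chain of type IV collagen. It lies on chromosome 8 from 11198423 to 11312826 (minus strand, ENSMUSG00000031502.11, GENCODE M21 on GRCm38). Its level was 258, 360 and 340 CPM in KO libraries 1 to 3 and 1180, 1070 and 1114 CPM in WT libraries 1 to 3. All 3 KO libraries lay far below the lowest WT library, and KO 1 was the lowest of all. The means were 319 ± 54.1 CPM in KO and 1121 ± 55.8 in WT (SD, n = 3 each), with a log2 fold change of -1.81 (SE 0.16, adjusted p = 0.00183 in edgeR). Without KO 1 and WT 1 it was -1.64 (adjusted p = 7.91e-10), in a setting where 48% of all genes tested were called.

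Col4a2 encodes the alpha2 chain and lies on chromosome 8 from 11312805 to 11449287 (plus strand, ENSMUSG00000031503.13). It was at 171, 212 and 216 CPM in KO and at 587, 574 and 589 CPM in WT. The WT libraries were close together, with an SD of 7.87 CPM around 583 CPM, and the KO libraries again had KO 1 as the lowest, with 200 ± 24.7 CPM (SD, n = 3 each). The log2 fold change was -1.55 (SE 0.13, adjusted p = 0.00158), and -1.44 without KO 1 and WT 1 (adjusted p = 2.09e-09). In that setting 48% of all genes tested were called. The shared start leaves only 22 exonic bases common to both genes, against merged exon lengths of 7464 bases for Col4a1 and 6619 for Col4a2.

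Reads of Col4a1 and Col4a2 were also set against each other within each library. The ratio was 1.51, 1.70 and 1.58 Col4a1 reads per Col4a2 read in KO libraries 1 to 3 and 2.01, 1.86 and 1.89 in WT libraries 1 to 3. The highest KO ratio stayed below the lowest WT ratio. Per exon length the ratio of transcript levels was 1.34, 1.51 and 1.40 in KO and 1.78, 1.65 and 1.68 in WT. On the log2 scale the mean read ratio was 0.67 ± 0.09 in KO and 0.94 ± 0.06 in WT (SD, n = 3 each), a difference of -0.27. An exact two-sided permutation test gave p = 0.1, the smallest that 3 against 3 libraries allow (0.25 adjusted over 5 gene pairs), so this test could not have given a p under 0.05. The difference stayed between -0.32 and -0.20 when libraries were left out.

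**Figure D3:**
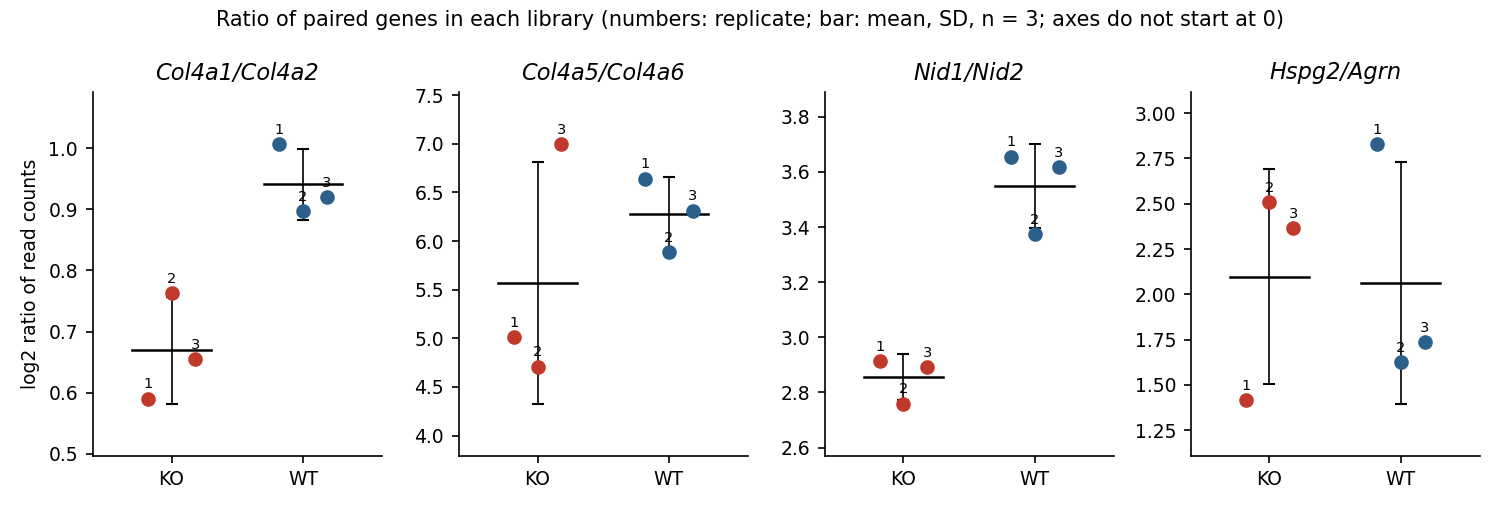
Log2 ratio of read counts of 4 gene pairs in each library, KO left and WT right, with replicate numbers, mean and SD (n = 3); axes do not start at 0. KO and WT do not overlap for Col4a1/Col4a2 and Nid1/Nid2, and they overlap for Col4a5/Col4a6 and Hspg2/Agrn.

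Col4a5 and Col4a6 encode the alpha5 and alpha6 chains, which join in basement membranes of, for example, smooth muscle and some epithelia, and alpha5 is the chain most often mutated in human Alport syndrome. Both are on chromosome X, Col4a5 from 141475385 to 141689234 (plus strand) and Col4a6 from 141165403 to 141474076 (minus strand). Col4a5 was at 55.4, 29.7 and 31.9 CPM in KO libraries 1 to 3 and at 34.6, 55.4 and 55.6 CPM in WT libraries 1 to 3. KO 1 was level with WT 2 and WT 3, and WT 1 was close to KO 2 and KO 3, so the libraries fell into a high and a low level that cross genotype. The means were 39.0 ± 14.2 CPM in KO and 48.5 ± 12.1 in WT (SD, n = 3 each), and the log2 fold change of -0.32 did not pass (SE 0.30, adjusted p = 0.597). Without KO 1 and WT 1 it was -0.85 (adjusted p = 7.45e-06), in a setting where 48% of all genes tested were called (23.3% higher and 24.6% lower) and where genotype cannot be told apart from whatever sets KO 1 and WT 1 apart.

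Col4a6 was barely detected, with 66, 48 and 8 counts in KO libraries 1 to 3 and 12, 40 and 30 in WT libraries 1 to 3. The groups overlapped, and the log2 fold change was 0.65 (SE 0.75, adjusted p = 0.674). Among the 507 tested genes of chromosome X, 9.27% were called in either direction with a median log2 fold change of -0.06, against 7.33% and 0.01 for 14240 autosomal genes. The remaining type IV chains, Col4a3 and Col4a4 of the kidney glomerulus, were below the filter, with 6, 9 and 9 counts of Col4a3 in KO and 0 in each WT library, and 18, 0 and 8 counts of Col4a4 in KO and 0, 4 and 4 in WT. The log2 ratio of Col4a5 to Col4a6 was 5.57 ± 1.25 in KO and 6.28 ± 0.38 in WT (SD, n = 3 each, exact permutation p = 0.4, adjusted 0.5).

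Col18a1, on chromosome 10 from 77052178 to 77166548 (minus strand, ENSMUSG00000001435.15), encodes collagen XVIII. It was at 23.4, 19.4 and 16.5 CPM in KO libraries and at 37.6, 48.9 and 46.1 CPM in WT libraries. The groups did not overlap, and WT 1 and KO 1 were the pair closest to each other. The means were 19.8 ± 3.51 CPM in KO and 44.2 ± 5.87 in WT (SD, n = 3 each; log2 fold change -1.16, SE 0.18, adjusted p = 0.0127). The adjusted p was 0.076 without KO 2, 0.0598 without KO 3, 0.0621 without WT 2 and 0.0698 without WT 3, with log2 fold changes of -1.13, -1.04, -1.09 and -1.13. Without KO 1 and WT 1 together it was 7.49e-07 (-1.41), in a setting where 48% of all genes tested were called.

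Col15a1, which encodes collagen XV, was not tested because of its low counts. It had 0 counts in every KO library and 0, 13 and 25 in WT libraries 1 to 3. The reads thus came from WT 2 and WT 3 alone, and WT 1 was at 0 counts like the KO libraries. A count of 0 allows up to 0.0776, 0.0704 and 0.0881 CPM in KO libraries 1 to 3 (3 counts, counting error only). In a fit with no filter on low counts its adjusted p was 0.244 in edgeR. Without KO 1 and WT 1 it passed the filter, but only through WT 2 and WT 3, the libraries that hold its reads. The direction of its call there (lower, adjusted p = 0.00839 in edgeR) was thus fixed in advance, and nothing is concluded from it.

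Nidogens are glycoproteins that bridge laminin and type IV collagen. Nid1, on chromosome 13 from 13437551 to 13512269 (plus strand), was at 281, 350 and 319 CPM in KO and at 400, 280 and 310 CPM in WT. WT 1 was the highest library, WT 2 was just below the lowest KO library, and the groups overlapped. The log2 fold change was -0.06 (SE 0.17, adjusted p = 0.879), and its sign changed with the scaling (0.01 with upper-quartile factors and 0.01 with no scaling factors).

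Nid2, on chromosome 14 from 19751265 to 19811787 (plus strand), was at 37.4, 51.6 and 43.0 CPM in KO and at 31.7, 26.9 and 25.3 CPM in WT. Every KO library was above every WT library, with the narrowest gap between KO 1 and WT 1. The means were 43.98 ± 7.18 CPM in KO and 28.0 ± 3.35 in WT (SD, n = 3 each), and the log2 fold change of 0.65 missed the threshold (SE 0.16, adjusted p = 0.0604). Nid2 was called under 7 of 15 alternatives. The adjusted p was 0.00459 in DESeq2, 0.0363 with upper-quartile factors, 0.0325 with no scaling factors and 0.0478 with a mean of at least 5 CPM. It was 0.0399 without KO 1, 0.0483 without WT 1 and 4.15e-05 without both, where 48% of all genes tested were called. Under the other 8 Nid2 was not called: limma-voom (0.0602), median-ratio factors (0.0576), no filter on low counts (0.0644), the replicate block (0.332), and without any 1 of KO 2, KO 3, WT 2 and WT 3 (0.166 to 0.228). Nid2 shares 437 exonic bases with Rtraf on the opposite strand, a gene of 126 ± 0.84 CPM in KO and 115 ± 4.74 in WT (SD, n = 3 each), and whether reads were counted by strand is not known here.

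The nidogens were compared within libraries in the same way. The log2 ratio of Nid1 to Nid2 reads was 2.91, 2.76 and 2.89 in KO libraries and 3.66, 3.38 and 3.62 in WT libraries. Every KO ratio was below every WT ratio, and the difference of the means was -0.69 (exact permutation p = 0.1, the smallest possible, adjusted 0.25). It ranged from -0.78 to -0.64 when libraries were left out.

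Perlecan and agrin carry heparan sulfate, a sugar chain that binds growth factors, and agrin is known for clustering acetylcholine receptors at the neuromuscular junction. Hspg2, on chromosome 4 from 137468769 to 137570630 (plus strand), was at 506, 856 and 701 CPM in KO libraries 1 to 3 and at 884, 462 and 558 CPM in WT libraries 1 to 3. WT 1, KO 2 and KO 3 were the highest libraries, and KO 1 lay between WT 2 and WT 3. The log2 fold change was 0.12 (SE 0.29, adjusted p = 0.864), and 0.61 without KO 1 and WT 1 (adjusted p = 0.0467). In that setting 48% of all genes tested were called. Agrn, on chromosome 4 from 156165290 to 156197488 (minus strand), was at 190, 150 and 136 CPM in KO and at 124, 150 and 168 CPM in WT. KO 1 was the highest and WT 1 the lowest, with the other libraries between them. The log2 fold change was 0.11 (SE 0.17, adjusted p = 0.773). The log2 ratio of Hspg2 to Agrn was 1.42, 2.51 and 2.37 in KO and 2.83, 1.62 and 1.74 in WT, with KO 1 beside WT 2 and WT 3 and WT 1 beside KO 2 and KO 3. The difference of the means was 0.03 (exact permutation p = 1).

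Scaled by exon length, the levels of the 10 genes can be set in order. In KO cells Hspg2 (48.1 ± 12.3 RPKM), Nid1 (45.6 ± 4.91) and Col4a1 (42.8 ± 7.24) lay within each other's SD, followed by Col4a2 (30.2 ± 3.73), Agrn (17.1 ± 2.99), Nid2 (8.50 ± 1.39), Col4a5 (5.81 ± 2.12) and Col18a1 (2.81 ± 0.50). In WT cells Col4a1 (150 ± 7.47 RPKM) and Col4a2 (88.1 ± 1.19) led, followed by Nid1 (47.5 ± 9) and Hspg2 (44.4 ± 15.5), which lay within each other's SD, then Agrn (15.9 ± 2.35), and Col4a5 (7.22 ± 1.80), Col18a1 (6.29 ± 0.84) and Nid2 (5.404 ± 0.65). Among these last 3, Col4a5 and Col18a1 differed by less than the SD of Col4a5. Col4a6 (0.13 ± 0.09 in KO and 0.08 ± 0.04 in WT) and Col15a1 (0 in KO and 0.05 ± 0.05 in WT) were the lowest in both groups (SD, n = 3 each). The sum over the 10 genes was 201 ± 24.1 RPKM in KO and 365 ± 28.9 in WT. Col4a1 and Col4a2 made up 36.3 ± 2.09% of that sum in KO and 65.4 ± 2.83% in WT, and the sum of the other 8 genes was 128 ± 14.4 RPKM in KO and 127 ± 20.6 in WT. Hspg2 and Nid1 were the largest of these 8, and for both WT 1 was the highest WT library and KO 1 the lowest KO library. The near-equal means therefore do not show that each gene, or each library, was level. Exon lengths come from GENCODE and not from the authors' annotation, which remains unknown here.

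**Figure D4:**
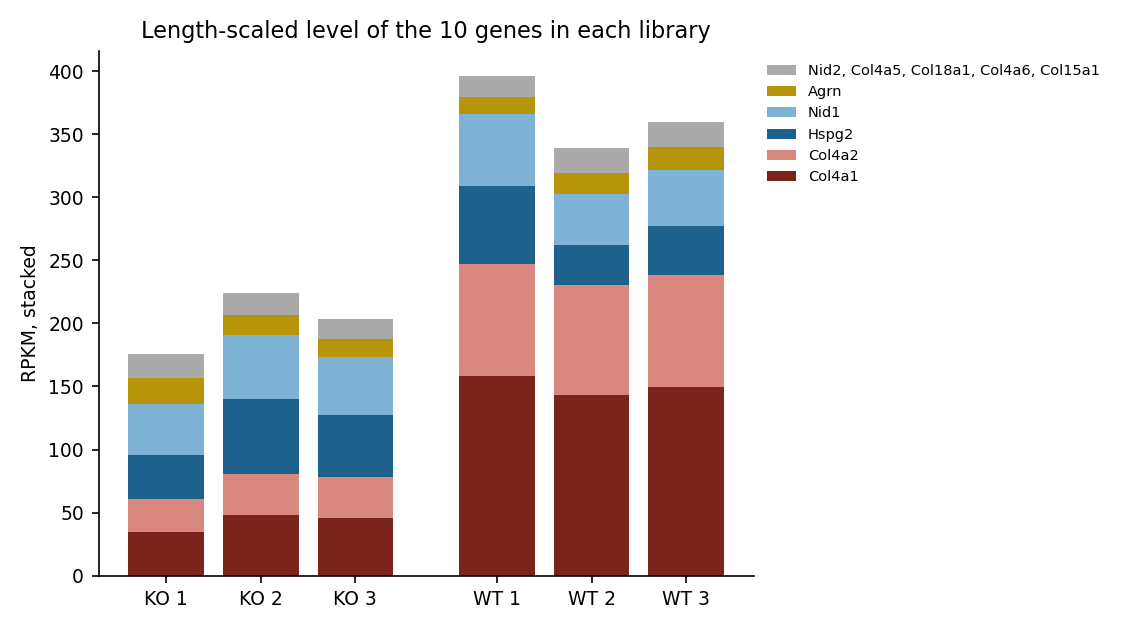
Stacked RPKM of the 10 genes in each library, KO left and WT right, on an axis from 0. The bars reach 176 to 224 RPKM in KO and 339 to 396 in WT, and the Col4a1 and Col4a2 blocks are smaller in every KO library than in any WT library.

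The genes whose pattern over the 6 libraries was nearest to the mean of Col4a1 and Col4a2 were Neo1, Mn1, Fam177a, Efnb1, Parvb and Arid3b, with root mean square distances of 0.12 to 0.16 on centred log2 CPM among 9931 ranked genes. Neo1, a receptor for netrins and other guidance cues, was at 149 ± 21.8 CPM in KO and 406 ± 23.9 in WT (SD, n = 3 each). Parvb, an adaptor of the integrin-linked kinase complex, was at 18.2 ± 1.36 CPM in KO and 52.3 ± 7.82 in WT. Among the members, Col18a1 ranked at 122, Col4a5 at 4075, Nid1 at 4190, Agrn at 6836, Hspg2 at 6989 and Nid2 at 9137.

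Genes that fold, crosslink and export collagen were described next. Of 25 tested genes of this list 7 fell and 1 rose, with a median log2 fold change of -0.36 against 0.01 for all genes. Over all genes tested, edgeR called 3.86% lower and 3.55% higher. Pxdn, the peroxidase that forms the sulfilimine crosslinks of type IV collagen, was at 238, 269 and 251 CPM in KO and at 445, 480 and 555 CPM in WT (log2 fold change -0.97, SE 0.13, adjusted p = 0.00716). All KO libraries lay below all WT libraries. P4ha3, a prolyl hydroxylase subunit, was at 2.56 ± 1.82 CPM in KO and 12.4 ± 3.61 in WT (-2.28, adjusted p = 0.0486). Ppib, a prolyl isomerase of the collagen-modifying complex, was at 248 ± 37.6 CPM in KO and 441 ± 54.1 in WT (-0.83, adjusted p = 0.0264), and Sec23a, a COPII coat subunit, at 96.3 ± 4.69 CPM in KO and 166 ± 29.1 in WT (-0.78, adjusted p = 0.0271). The other falls were Serpinh1 (HSP47, the collagen chaperone), Fkbp10 and Crtap, with log2 fold changes of -0.62, -0.54 and -0.42, and the rise was Sar1b, a GTPase of the COPII coat, at 0.57. Without any 1 of KO 2, KO 3, WT 2 and WT 3, Pxdn was the only fall of this list still called, and the other 6 falls and Sar1b had adjusted p from 0.0915 to 0.186. P4ha3 was also not called without WT 1 (0.0538), and Crtap without KO 1 (0.0565) or WT 1 (0.0551). With no scaling factors P4ha3, Ppib, Sec23a and Crtap were not called (adjusted p from 0.0579 to 0.0779). The count of falls was 1 without any 1 of KO 2, KO 3, WT 2 and WT 3. It was 20 without KO 1 and WT 1, where 24.6% of all genes tested were called lower. The count was 11 with DESeq2 (7.97% of all genes lower), 4 with upper-quartile factors and 3 with no scaling factors. P4ha1, P4hb, Plod1 and Plod2, which also serve the hydroxylation of collagen, did not pass.

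Among the 11 laminin chains, partners of the nidogens and of perlecan, Lama5 rose, and 0 fell in edgeR, DESeq2 and limma-voom (1 lower at an unadjusted p under 0.05). Over all genes tested, edgeR called 3.55% higher and 3.86% lower. DESeq2 called 3 chains higher, and 7.86% of all genes. Lama5 was at 240, 300 and 254 CPM in KO and at 107, 65.5 and 79.4 CPM in WT (log2 fold change 1.66, SE 0.20, adjusted p = 0.00592), with every KO library above every WT library. The list median was 0.14. Lamc1 and Lamb1, the chains shared by most laminins, had log2 fold changes of 0.14 and -0.16 (adjusted p = 0.746 and 0.795).

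Of 18 tested other basement membrane genes 3 rose and 3 fell, with a median of 0.00 (edgeR called 3.55% of all genes higher and 3.86% lower). The secreted calcium-binding proteins Smoc1 and Smoc2 moved in opposite directions. Smoc1 was at 17.9, 13.4 and 12.3 CPM in KO and at 1.25, 1.06 and 1.10 CPM in WT (log2 fold change 3.67, SE 0.24, adjusted p = 0.000803). Smoc2 was at 14.2, 12.4 and 17.9 CPM in KO and at 62.0, 66.2 and 57.3 CPM in WT (-2.06, SE 0.17, adjusted p = 0.00153). Both were separated without overlap, and the means in KO were 14.5 CPM of Smoc1 and 14.8 CPM of Smoc2. Ntn1, the guidance cue netrin-1, was at 155 ± 13.2 CPM in KO and 61.1 ± 13.3 in WT (1.34, adjusted p = 0.0085). Tinagl1, a matricellular glycoprotein, was at 63.0 ± 11.2 CPM in KO and 20.95 ± 10.7 in WT (1.59, adjusted p = 0.0448), and was not called without KO 1, KO 2, KO 3, WT 2 or WT 3 (adjusted p from 0.0507 to 0.162). Besides Smoc2 and Pxdn, the third fall was Ecm1 (-0.71, adjusted p = 0.0166), not called without any 1 of KO 2, KO 3, WT 2 and WT 3 (0.0806 to 0.0942). Pxdn belongs to the collagen folding list as well, so its fall is counted in both lists.

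Of 23 tested receptors and cell-surface partners of basement membranes 4 fell, with a list median of -0.31, and 0 rose in edgeR and limma-voom (1 at an unadjusted p under 0.05 and 1 in DESeq2). Over all genes tested, edgeR called 3.86% lower and 3.55% higher. Ddr1, a collagen receptor kinase that binds type IV collagen, was at 99.0, 97.3 and 94.0 CPM in KO and at 151, 176 and 170 CPM in WT (log2 fold change -0.77, SE 0.10, adjusted p = 0.00772). KO and WT libraries did not overlap. Sdc1, a syndecan (cell-surface proteoglycan), was at 194 ± 26.9 CPM in KO and 374 ± 78.3 in WT (-0.95, adjusted p = 0.0323). The syndecan Sdc3 was at 69.0 ± 8.44 CPM in KO and 121 ± 2.53 in WT (-0.81, adjusted p = 0.0104). Ptprs, a receptor phosphatase that binds heparan sulfate, had a log2 fold change of -0.93 (adjusted p = 0.0482), and its call was lost under 11 of 15 alternatives, among them limma-voom (0.0508), median-ratio factors (0.0502), upper-quartile factors (0.0746), no scaling factors (0.089) and a mean of 5 CPM or more (0.0622). Sdc1 was not called with upper-quartile factors (0.0551) or no scaling factors (0.0679). Without any 1 of KO 2, KO 3, WT 2 and WT 3, Sdc1 and Ptprs had adjusted p from 0.122 to 0.185 and Sdc3 from 0.054 to 0.0696, Ptprs was not called without KO 1 (0.0556), and Ddr1 was not called without KO 3 (0.0558) or WT 3 (0.0531). The count of falls was 7 with DESeq2, which called 7.97% of all genes lower and 7.86% higher. It was 2 with upper-quartile factors and 0 to 1 without any 1 of KO 2, KO 3, WT 2 and WT 3. It was 12 without KO 1 and WT 1, where 24.6% of all genes tested were called lower. The integrin subunits Itgb1, Itga1, Itga3 and Itga6 and dystroglycan (Dag1) did not pass, with adjusted p from 0.262 to 0.841. Closer to the threshold, and also not called, were Itga7 (-0.71, adjusted p = 0.0627) and Itga9 (-3.48, adjusted p = 0.0745). Both had every KO library below every WT library, and Itga9 was low, at 0.13 CPM in KO and 1.51 in WT.

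The list of heparan sulfate enzymes, which build and edit the chains of perlecan and agrin, had 2 falls and 1 rise among 23 tested genes and a median of -0.17. Over all genes tested, edgeR called 3.86% lower and 3.55% higher. Glce, the epimerase that converts glucuronic to iduronic acid, was at 51.9, 44.4 and 48.0 CPM in KO and at 105, 115 and 113 CPM in WT (log2 fold change -1.20, SE 0.10, adjusted p = 0.00183). Every KO library had a lower level than every WT library. Ext2, a subunit of the chain polymerase, was at 151 ± 2.66 CPM in KO and 215 ± 15.2 in WT (-0.51, adjusted p = 0.0314), and Xylt1, which starts the chain, at 4.38 ± 1.90 CPM in KO and 0.80 ± 0.34 in WT (2.45, adjusted p = 0.0365). Xylt1 was not called when any 1 library was left out (adjusted p from 0.0548 to 0.129), nor was Ext2 without any 1 of KO 2, KO 3, WT 2 and WT 3 (0.129 to 0.148), with upper-quartile factors (0.0562) or with no scaling factors (0.0703). DESeq2 called 4 higher and 4 lower in this list, against 7.86% higher and 7.97% lower over all genes.

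Of 21 tested matrix proteases and inhibitors 4 fell and 1 rose, with a median of -0.21 (edgeR called 3.86% of all genes lower and 3.55% higher). Mmp2, a gelatinase that cleaves type IV collagen, was at 72.6, 54.2 and 48.2 CPM in KO and at 218, 390 and 391.8 CPM in WT (log2 fold change -2.51, SE 0.28, adjusted p = 0.00417). Plau, the urokinase-type plasminogen activator, was at 30.2 ± 3.65 CPM in KO and 69.4 ± 8.30 in WT (-1.20, adjusted p = 0.00542). Mmp16, a membrane-bound metalloproteinase, had a log2 fold change of -0.88 (adjusted p = 0.0289), and Timp3, an inhibitor that binds to matrix, of -0.57 (adjusted p = 0.0451). Htra1, a secreted serine protease, rose to 191 ± 8.39 CPM in KO, against 110 ± 6.44 in WT (0.79, adjusted p = 0.0066). Mmp16 was not called without any 1 of KO 2, KO 3, WT 2 and WT 3 (adjusted p from 0.124 to 0.138) or with no scaling factors (0.0561), Timp3 when any 1 library was left out (0.0592 to 0.169) or with upper-quartile factors (0.0507), and Htra1 was not called without WT 3 (0.0537). The count of falls was 2 without any 1 of KO 2, KO 3, WT 2 and WT 3, and 7 with DESeq2 (7.97% of all genes lower). It was 12 without KO 1 and WT 1, where 24.6% of all genes tested were called lower.

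**Figure D5:**
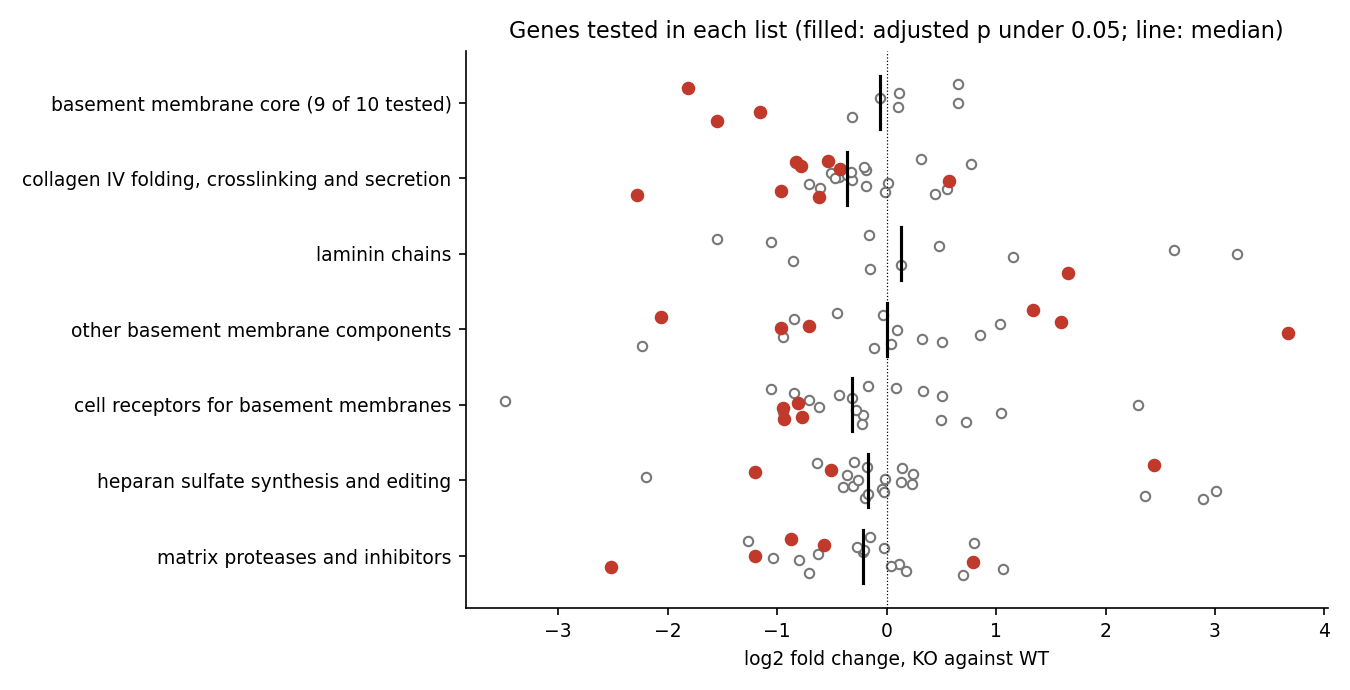
Log2 fold change, KO against WT, of each tested gene in the basement membrane core (top) and in 6 related lists. Filled points have an adjusted p under 0.05 and black lines are list medians, which run from -0.36 for collagen folding and export to 0.14 for laminins.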

How the data were processed

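Read counts per gene symbol, as deposited by the authors, were analysed for 6 libraries of immortalized mouse embryonic fibroblasts. The submitters' processing notes name Trim Galore 0.6.6, HISAT2 2.2.1 and a build of the human genome, whereas the symbols are those of mouse. How reads were counted (program, strand, annotation) is not given in the sources used here. Sample titles defined the groups. Library totals lay between 34450993 and 44116310 counts, and 3 counts equal 0.0689 to 0.0881 CPM (counting error only).

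Differences were tested by edgeR 4.0.16 under R 4.3.3: filterByExpr, TMM scaling, glmQLFit with robust estimation, glmQLFTest, and Benjamini-Hochberg adjustment (15223 genes, threshold 0.05). Every adjusted p-value of a single gene comes from edgeR unless another tool is named. SEs were obtained as |log2 fold change| over the square root of F. CPM values use TMM-scaled library sizes, and RPKM values divide them by the merged exon length in GENCODE M21 (GRCm38), where 92.7% of the symbols matched 1 gene. Ratios of paired genes (0.5 added to counts) were tested with exact two-sided permutation tests over libraries. Alternatives were DESeq2 1.42.0, limma-voom (limma 3.58.1), other scaling factors and filters, a replicate block, and left-out libraries. The fits were also run on simulated counts with known changes.

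The 10 genes and the lists were chosen with earlier results of these data known. Named genes are the 10 members, Ppme1, up to 4 called genes of each list averaging 1 CPM or more (by size of the log2 fold change), and the 6 genes nearest in pattern to Col4a1 and Col4a2. Other genes were named after their values were seen. Promoter windows are RefSeq sequence on GRCm38.p6.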

Additional observations from a re-analysis of the deposited data

How the results depend on the processing

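Col4a1 and Col4a2 kept their direction under all 15 alternatives and their call under 14, with log2 fold changes from -1.90 to -1.64 and from -1.60 to -1.44. Deviations from the group mean had a Pearson r of -0.73, -0.57 and -0.59 across 10762 genes for replicate numbers 1 to 3. Deviations within a group cancel out, and KO 1 and WT 1 stood apart, so these values are not independent of each other. They cannot decide whether the number marks a pairing, which the labels do not state. With the replicate block 8 genes were called in all, against 1127, and 0 members, 0 of them lower, with adjusted p = 0.072 for Col4a1 and Col4a2 and 0.17 for Col18a1. The count of genes called was 2406 with DESeq2, 332 to 1216 with 1 library left out and 7408 without KO 1 and WT 1. In that last setting 48% of all genes tested were called, 23.3% higher and 24.6% lower. Genotype cannot be told apart there from whatever sets KO 1 and WT 1 apart. Of the members 8 were called, 5 lower (Col4a1, Col4a2, Col4a5, Col15a1 and Col18a1) and 3 higher (Nid1, Nid2 and Hspg2). Col15a1 passed the filter there only through WT 2 and WT 3. The direction of its call was thus fixed in advance, and nothing is concluded from its place in these counts. With 1 library left out 2 to 4 members were called, 2 to 3 lower and 0 to 1 higher. The 1 member called higher with DESeq2, upper-quartile factors, no scaling factors or a mean of at least 5 CPM was Nid2.

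Signs changed for genes that were not called with all libraries. Nid1 was at 0.008 with upper-quartile factors, 0.007 with no scaling factors, 0.017 without KO 1, 0.108 without WT 1 and 0.18 without both, and its range with 1 library left out began at -0.167. Hspg2 was at -0.068 without KO 2 and -0.072 without WT 2, and at up to 0.608 (without KO 1 and WT 1). Agrn was at -0.043 without KO 1, up to 0.218 with another library left out and -0.15 without KO 1 and WT 1, and Col4a6 at -0.228 in that setting and 1.133 at most with 1 library left out. The Hspg2 to Agrn log2 ratio difference ran from -0.186 to 0.417 with 1 library left out and was 0.757 without KO 1 and WT 1 (-0.173 without KO 2, -0.101 without KO 3, -0.186 without WT 2 and -0.13 without WT 3). The cause of these changes was not tested. The Col15a1 to Col18a1 ratio, 1 of the 5 pairs, rests on counts of 0 in 4 libraries and is not reported. The difference in the share of summed RPKM from Col4a1 and Col4a2 with libraries left out, added after seeing the data, ran from -30.7 to -28.0 percentage points. Depth limits Col4a6 and Col15a1, with at most 66 counts in a library.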
